A study of Mus musculus with 9 samples.

Results

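The replication-dependent histone genes were followed in cultured mouse macrophages. They were taken as every gene of the deposited count table whose symbol begins with Hist1h, Hist2h, Hist3h or Hist4h, which gave 69 of 24607 genes. By type they were 6 linker H1, 20 H2A, 19 H2B, 11 H3 and 13 H4 genes. By cluster, 56 belonged to Hist1, 9 to Hist2, 3 to Hist3 and 1, Hist4h4, stood alone. The members were chosen by symbol alone, but the family itself was selected on its measured levels in the 9 libraries. Its values, fold changes and counts of calls are therefore given as a description, without p-values. The macrophages of all 3 groups were bone marrow-derived, had the genotype CX3CR1-gfp/+ (a green fluorescent protein reporter in the gene of the fractalkine receptor) and were differentiated in M-CSF, the macrophage growth factor, at 50 ng/ml. One group was grown alone (monoculture), another beside DRG neurons, the sensory neurons of the dorsal root ganglia (co-culture), and the last received TGF-β (transforming growth factor beta) at 0.02 ng/ml. The labelled time was 5 days for all. Each condition had 3 libraries, made from macrophages sorted on CD11b and CD64. The source was 3 mice, and the labels do not say whether each mouse gave cells to all 3 groups.

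A nucleosome core is built from the histones H2A, H2B, H3 and H4, and a linker histone H1 binds where DNA enters and leaves it. Dividing cells must make this protein in step with DNA replication, and the genes studied here supply it: their transcription is driven by NPAT in late G1 and S phase and their mRNAs are degraded when replication stops. Most of these mRNAs end in a short stem-loop, bound by the stem-loop binding protein SLBP, in place of a poly(A) tail. Some of the genes also give polyadenylated transcripts, above all in cells that leave the cycle. Macrophages in M-CSF culture keep dividing, and TGF-β is known as a brake on the cycle of many cell types.

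The stem-loop is the feature that sets these mRNAs apart, so it is shown first for members that the results return to. It was read from the GENCODE M21 transcript models (mm10), each on the gene's own strand, with the paired stem in capitals and the loop and flanks in lower case.
Hist1h1c: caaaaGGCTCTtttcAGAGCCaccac
Hist3h2a: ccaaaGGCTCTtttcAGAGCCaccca
Hist2h2ac: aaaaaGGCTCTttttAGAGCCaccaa
Hist1h2bp: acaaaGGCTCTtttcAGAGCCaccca
Hist1h3e: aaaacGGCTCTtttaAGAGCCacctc
Hist1h4d: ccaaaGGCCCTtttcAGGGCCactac
Hist1h4i: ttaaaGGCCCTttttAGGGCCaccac
Hist4h4: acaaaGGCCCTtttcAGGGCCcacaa
The 16-base stem-loops lie at chr13:23739512-23739527 (plus strand) for Hist1h1c, chr11:58955172-58955187 (plus) for Hist3h2a and chr3:96220418-96220433 (minus) for Hist2h2ac. Those of Hist1h2bp and Hist1h3e lie at chr13:21787923-21787938 (plus) and chr13:23561903-23561918 (minus). Among the H4 genes they lie at chr13:23581950-23581965 (plus) for Hist1h4d, chr13:22040966-22040981 (minus) for Hist1h4i and chr6:136803998-136804013 (minus) for Hist4h4. The pattern searched was a GGCNCT and AGNGCC stem around a TTTN loop, on the transcript strand, and it was found in 39 of the 67 members present in this annotation. All 39 were among the 47 members whose model has at least 40 bases after the stop codon. It was found in 3 of 21884 other protein-coding genes (0.0137%), which were the histone genes H2afx and H2bfm and Trim17, whose model overlaps Hist3h2a. The stem separated the types: all 9 H4 stem-loops found read GGCCCT and AGGGCC, and all 30 of the other types read GGCTCT and AGAGCC. The loop was TTTC in 30 members, TTTA in 6 and TTTT in 3.

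Upstream sequence also differed by type. RefSeq promoter windows of 300 bases (GRCm38.p6) were matched for 57 members. CCAAT, counted on both strands, was present in all 6 H1, 15 H2A, 15 H2B and 9 H3 windows, in 3 of 12 H4 windows and in 37.4% of all 32851 windows. The octamer ATTTGCAT, the site known for the transcription factor OCT1 in H2B promoters, was present in 7 of 15 H2A windows and 6 of 15 H2B windows. No H1, H3 or H4 window held it, and 1.74% of all windows did. TATAAA was present in 34 of 57 member windows (59.6%) and in 13.6% of all windows. As an example of an H2B and an H4 gene, the 200 bases before the RefSeq start are shown for both, with each of these motifs in capitals on either strand. The H2B gene was picked as that of most counts among those holding all of these motifs there. The H4 gene is that of most counts, and it is among the 3 H4 windows that hold CCAAT.
Hist1h2bg, chr13:23571200-23571399 (plus): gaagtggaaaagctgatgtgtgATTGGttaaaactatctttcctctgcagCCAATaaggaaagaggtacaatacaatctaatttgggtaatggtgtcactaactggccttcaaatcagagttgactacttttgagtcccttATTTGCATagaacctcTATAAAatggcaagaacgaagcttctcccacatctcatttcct
Hist1h4d, chr13:23581368-23581567 (plus): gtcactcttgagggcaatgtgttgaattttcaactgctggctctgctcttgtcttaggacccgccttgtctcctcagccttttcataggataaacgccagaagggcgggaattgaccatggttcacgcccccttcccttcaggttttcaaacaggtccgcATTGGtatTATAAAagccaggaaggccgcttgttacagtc
A match describes these letters only, and no binding was measured.

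The values are normalized counts, meaning reads of a gene divided by 1 size factor per library. Libraries held 46.8 to 308.8 M reads (M, 1e+06). All 9 macrophage markers in the table were above 0 in every group. The sum of fibroblast markers ran from 70.51 to 199.7 over the monocultures, from 7213 to 10390 over the co-cultures and from 83.42 to 181.4 over the TGF-β libraries. Lum, Mfap4, Mfap5 and Pdgfra were at 0 in all monocultures. In the same order, sensory neuron markers ran from 84.46 to 103.9, 169.6 to 303.6 and 54.11 to 56.81, and Schwann and satellite glia markers from 10920 to 12733, 5621 to 6211 and 9315 to 10635. The part of these other cells in any histone value was not tested. In such bulk samples, fewer cycling cells and less histone mRNA per cycling cell cannot be told apart.

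Histone mRNA was abundant in all 3 conditions, and its summed level was highest with TGF-β. The 69 genes summed to 766536, 1009855 and 738256 normalized counts in monocultures 1 to 3, and to 787106, 766803 and 913440 in co-cultures 1 to 3. With TGF-β the sums were 1161239, 1333064 and 897414. The means were 838215 ± 149315, 822450 ± 79451 and 1130573 ± 219438 (SD, n = 3), so co-culture stood at 0.981 times and TGF-β at 1.35 times monoculture. TGF-β 1 and 2 lay above all other libraries, whereas TGF-β 3 lay below monoculture 2 and co-culture 3. As a share of all reads the family took 0.767% ± 0.165 in monoculture, 0.766% ± 0.0539 in co-culture and 0.985% ± 0.128 with TGF-β (SD, n = 3).

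Of the 69 members, 66 passed the filter of at least 10 normalized counts in at least 3 libraries, and 65 of these were above it in all 9. The exception, Hist1h1t, is described with the testis genes. Per kilobase of gene model, the highest mean levels over the 9 libraries were those of Hist2h2ac (87640 normalized counts per kb), Hist1h2ak (84664) and Hist1h1b (78090). The lowest among tested members was 9.174 per kb, in Hist1h2bq, so levels spanned several orders of magnitude. These lengths are uncertain, because 19 models run on for over 100 bases past the stem-loop. Near-identical copies add to this. In 33 of 67 members over 50% of the 50-base windows of the first transcript model recur in another gene, and how such reads were assigned is not stated. For Hist1h2bq all windows of this model, of 381 bases, recur, but its exons together span 2.015 kb.

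The Hist1 cluster on chromosome 13 supplied 89.6% ± 0.358 of the family's counts in monoculture, 90.6% ± 1.23 in co-culture and 89.9% ± 1.28 with TGF-β (SD, n = 3). The 9 Hist2 genes on chromosome 3 supplied 10.2% ± 0.341, 9.2% ± 1.23 and 9.92% ± 1.26. The Hist3 genes on chromosome 11 summed to 321.4 ± 45, 318.7 ± 50 and 456.5 ± 138 normalized counts, a very small part. The Hist1 and Hist2 shares thus differed between groups by no more than about the spread between libraries.

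The summed level of each type had its highest group mean with TGF-β. For H1 genes the sum was 319451 ± 55815 in monoculture, 347198 ± 14240 in co-culture and 429335 ± 55460 with TGF-β. H2A genes summed to 203377 ± 65225, 176662 ± 32261 and 237706 ± 48686. H2B genes summed to 104797 ± 15334, 112082 ± 18559 and 167352 ± 50050 (SD, n = 3 throughout). The ratio of TGF-β to monoculture was smallest for H2A, at 1.17, and largest for H2B, at 1.6. H3 genes summed to 115314 ± 26407, 100855 ± 7242 and 157846 ± 33838, and H4 genes to 95276 ± 13301, 85653 ± 7363 and 138334 ± 41578, with ratios of 1.37 and 1.45.

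**Figure D1:**
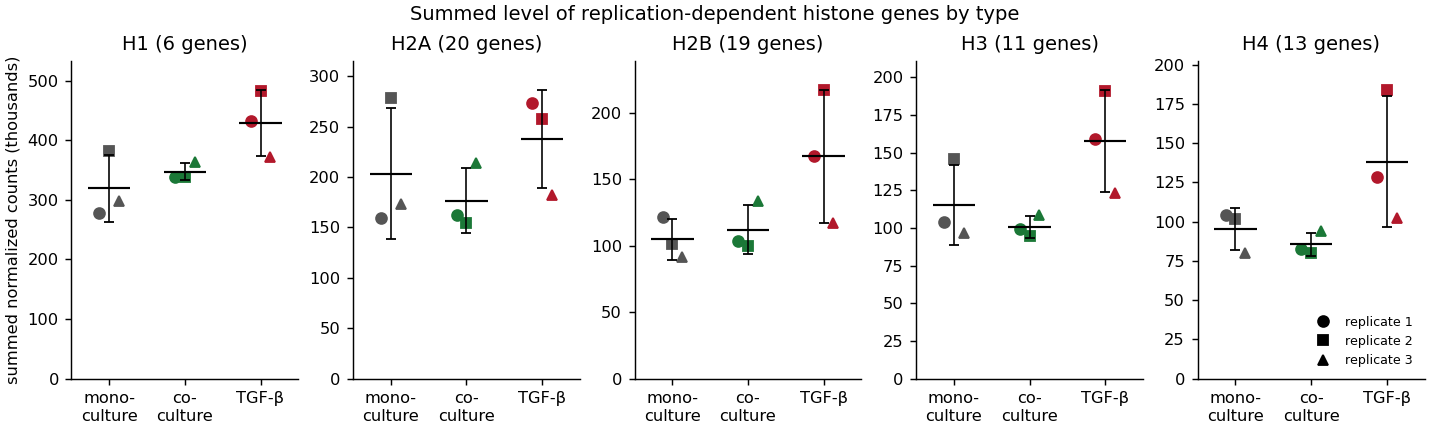
Summed normalized counts (axes from 0) of the genes of each histone type in each library, by condition. Points are libraries with the shape giving the replicate number, lines are group means and bars are 1 SD (n = 3). Monoculture 2 stands above the other monocultures for H1, H2A and H3, and TGF-β 3 is the lowest TGF-β library for every type.

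The first comparison asks what low-dose TGF-β alone does to macrophages. Most histone genes had positive fold changes and few were called. Against monoculture 62 of 66 tested members had a fold change above 0 on the log2(value + 10) scale, with a median of 0.52, beside a median of -0.01 over all 16328 genes tested. In limma at adjusted p under 0.05, 5 members rose and 0 fell, beside 1.13% of all genes higher and 1.39% lower. No member was lower at an unadjusted p under 0.05 (0 of 66), nor by edgeR or DESeq2. The groups did not overlap in 21 members, all higher with TGF-β (31.8%), beside 7.27% of all genes higher and 9.64% lower. The medians by type were 0.55 for H1, 0.24 for H2A, 0.63 for H2B, 0.52 for H3 and 0.57 for H4. The 5 members were Hist4h4, Hist1h2bp, Hist1h2bl, Hist1h3i and Hist1h1b.

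Among the linker histones, Hist1h1b encodes H1.5 (chr13:21779883-21780625, minus strand). It stood at 46469, 48938 and 44354 normalized counts in monoculture, 55331, 54286 and 60185 in co-culture and 75537, 78652 and 58433 with TGF-β. Every TGF-β library lay above every monoculture, and the gene rose by log2 0.59 ± 0.11 (SE). Hist1h1a, which encodes H1.1, stood at 25588, 22452 and 19748 in monoculture, 31097, 29651 and 33173 in co-culture and 37609, 42814 and 25977 with TGF-β. Its TGF-β libraries also lay above monoculture, at log2 0.63 ± 0.16, without being called. Hist1h1d and Hist1h1e, encoding H1.3 and H1.4, were 0.51 ± 0.13 and 0.42 ± 0.12 higher without being called, with no overlap between the groups. Hist1h1c, encoding H1.2 and the member with most counts, stood at 78654, 131962 and 91395 in monoculture and 116099, 126164 and 107451 with TGF-β. There the groups overlapped, since monoculture 2 was the highest of all, and the difference was 0.24 ± 0.15.

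Among the core histones, Hist1h2bp and Hist1h2bl, both H2B genes, rose by 0.91 ± 0.21 and 0.83 ± 0.18. Hist1h2bp stood at 483.9, 343 and 347.9 in monoculture, 391.2, 425.1 and 441.2 in co-culture and 721.5, 1020 and 540.9 with TGF-β. All 3 TGF-β libraries lay above the other 6. Hist1h2bl stood at 2846, 1729 and 2141 in monoculture and 4086, 4646 and 3161 with TGF-β, again without overlap. The H2B genes of most counts, Hist2h2bb and Hist1h2bn, were not called, at 0.63 ± 0.3 and 0.73 ± 0.18, and Hist2h2bb ranged from 20696 to 45081 within TGF-β. The identifier of Hist2h2bb belongs in GENCODE M21 to a noncoding gene that spans it, so its reads are of uncertain origin.

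Hist1h3i (H3) stood at 7734, 7954 and 6797 in monoculture and 12180, 14820 and 9299 with TGF-β, a rise of 0.67 ± 0.14. The H3 genes of most counts, Hist1h3b and Hist1h3e, were 0.34 ± 0.24 and 0.53 ± 0.13 higher without being called. Hist4h4, an H4 gene on chromosome 6 outside the clusters (chr6:136801553-136804415, minus strand), stood at 1042, 783.9 and 841.5 in monoculture, 1192, 1176 and 1421 in co-culture and 1774, 2338 and 1209 with TGF-β. Its rise of 0.95 ± 0.2 was the largest among the called members, and no TGF-β library overlapped monoculture. Hist1h4d and Hist1h4k, the H4 genes of most counts, were 0.38 ± 0.17 and 0.52 ± 0.16 higher and were not called. Among H2A genes Hist2h2ac and Hist1h2ak, with most counts, were at 0.28 ± 0.25 and 0.47 ± 0.13, and 0 H2A genes were called (2 at an unadjusted p under 0.05, 0 by edgeR and 2 by DESeq2).

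The number of calls rested on single libraries. TGF-β 3 was the lowest TGF-β library in 61 of 66 members and TGF-β 2 the highest in 52. Without TGF-β 3, 30 members were called higher; without TGF-β 1, 0; without TGF-β 2, 1; without monoculture 3, 1; and without co-culture 1, which enters through the shared spread, 3. DESeq2 on the same reads called 26 and a fit of the 2 groups alone called 2. The median fold change stayed between 0.35 and 0.7 when any 1 library was left out. TGF-β 2 and 3 were the shallowest libraries, with 55.9 and 46.83 M reads.

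**Figure D2:**
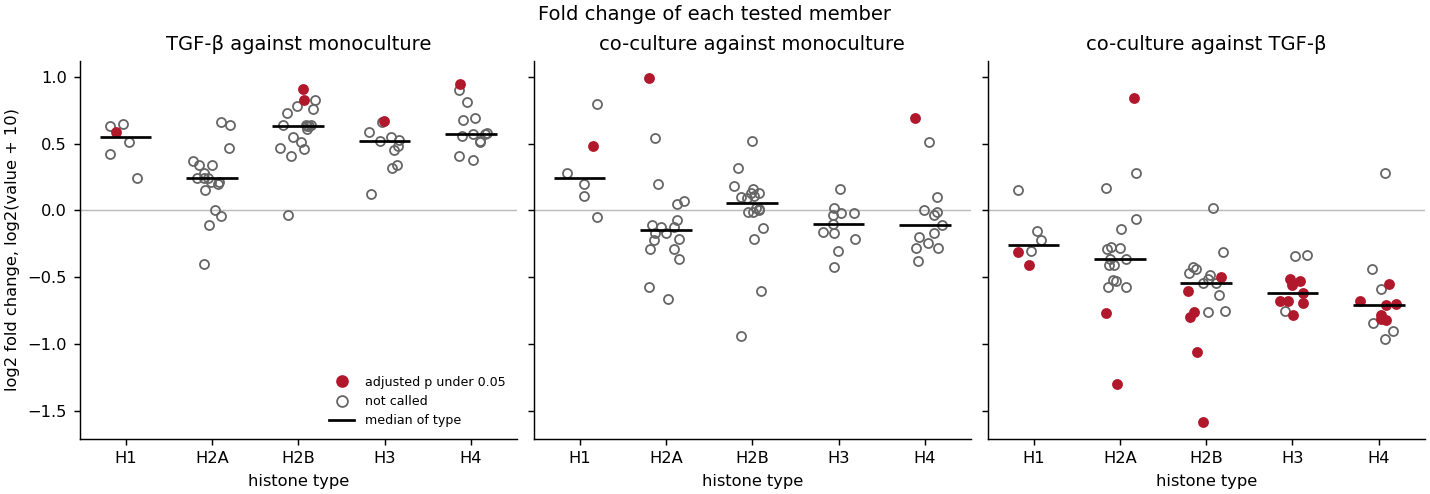
Log2 fold change, on the log2(value + 10) scale, of each of the 66 tested members by histone type in the 3 comparisons. Filled points passed adjusted p under 0.05 in limma, open points did not, and lines are medians of a type. With TGF-β 62 of 66 lie above 0 against monoculture, and in co-culture 60 of 66 lie below 0 against TGF-β.

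Monoculture 2 differed from monocultures 1 and 3 by histone type. Its H2A genes had a median log2 difference of 0.66 from the mean of the other monocultures, H3 genes 0.39, H1 genes 0.25, H4 genes 0.02 and H2B genes -0.16. It was the highest monoculture in 14 of 18 tested H2A genes and in 3 of 18 H2B genes. The H2A sum divided by the H2B sum was 1.31, 2.75 and 1.89 in monocultures 1 to 3, beside 1.55 to 1.6 over the co-cultures and 1.19 to 1.63 over the TGF-β libraries. The largest ratio was thus that of monoculture 2.

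This split ran through genes that share a promoter region. Many H2A and H2B genes lie head to head and are transcribed away from each other, and 12 such pairs with starts 176 to 306 bases apart were found in the annotation. In 10 of the 11 pairs with both genes tested, the H2A gene was higher in monoculture 2, relative to the other monocultures, than its H2B neighbour. These genes are among those already counted in the same library, so the pair count is no separate evidence of the split. The promoter sequence printed above for Hist1h2bg is that of such a head-to-head pair and is shared with Hist1h2ae. Hist1h2ae stood at 4186, 9484 and 5693 in monocultures 1 to 3, and Hist1h2bg at 11135, 13776 and 10968. In the pair that differed more clearly, Hist1h2ai stood at 11327, 36256 and 15663 and Hist1h2bl at 2846, 1729 and 2141, so the H2A gene was highest and the H2B gene lowest in the same library. The exception was Hist1h2ao with Hist1h2bq, both low and both close copies of other genes. The same holds for Hist1h2ap with Hist1h2br, a pair that went with the others (means over the 9 libraries 42.63 and 106.1). Hist1h2ai and Hist1h2bl also have 90.1% and 82.8% of their 50-base windows in other genes. The median GC content of the gene models was 64.4% for H2A, 60.2% for H3, 56.9% for H2B, 56.2% for H4 and 53.1% for H1. Its part in the pattern was not tested. Without monoculture 2 the H2A median of TGF-β against monoculture was 0.48 in place of 0.24, and that of H2B was 0.62.

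**Figure D3:**
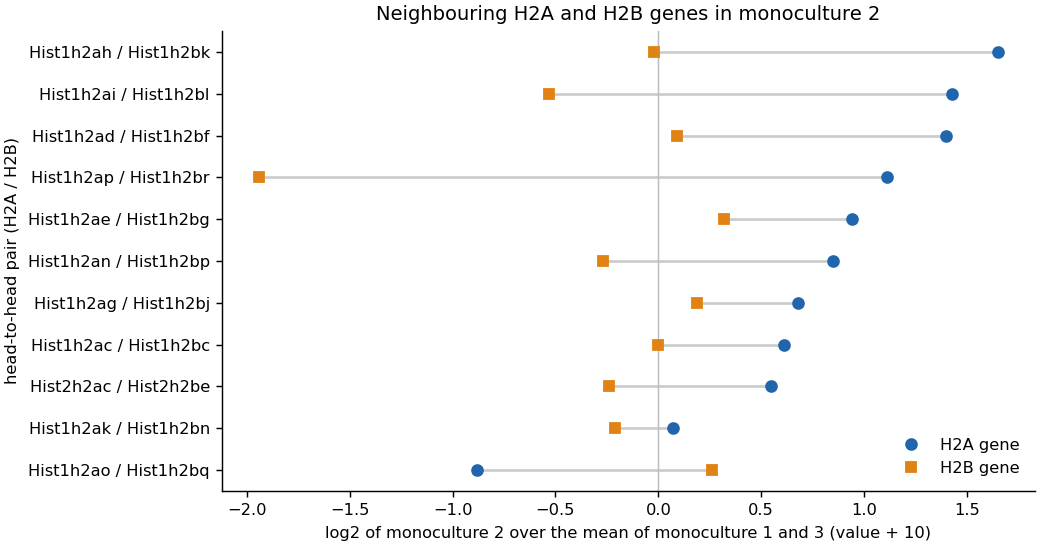
Log2 of monoculture 2 over the mean of monocultures 1 and 3 (value + 10) for the H2A (circles) and H2B (squares) genes of the 11 head-to-head pairs with both genes tested. A line joins each pair. The H2A gene lies to the right of its H2B neighbour in 10 pairs, the exception being Hist1h2ao with Hist1h2bq.

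The second comparison asks what co-culture with sensory neurons does. Summed histone mRNA was close to monoculture, and 3 single genes rose. The median fold change over 66 members was -0.02, beside 0.03 over all genes, with 27 members above 0 and 39 below. Called higher were 3 members and lower 0, beside 15.9% of all genes higher and 15.0% lower. At an unadjusted p under 0.05, 2 were lower in limma, and by adjusted p edgeR called 0 and DESeq2 1. The groups did not overlap in 7 members that were higher (10.6%) and 3 that were lower (4.55%), beside 23.3% and 21.7% of all genes. By type the medians were 0.24 for H1, 0.05 for H2B, -0.10 for H3, -0.11 for H4 and -0.15 for H2A. Single libraries set the sign of 3 of these. Without monoculture 2 the H2A median was 0.10, with 11 of 18 genes above 0 in place of 5, and the H3 median was 0.04. The H2B median was -0.03 without co-culture 3 and -0.01 without monoculture 3.

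Hist3h2a, an H2A gene of the chromosome 11 cluster (chr11:58954685-58956830, plus strand), rose most. It stood at 86.06, 65.61 and 106.2 in monoculture, 241.2, 143.8 and 159.5 in co-culture and 116.5, 91.78 and 79.54 with TGF-β. All 3 co-cultures lay above the other 6 libraries, and the fold change was 0.99 ± 0.27. Its model shares sequence with Trim17 on the same strand, so some of these reads could belong to that gene. Hist1h4i (H4) stood at 371.8, 454.7 and 281.3 in monoculture, 619.9, 547.8 and 606.6 in co-culture and 426.9, 609.7 and 434 with TGF-β. It rose by 0.69 ± 0.19 against monoculture without overlap. Hist1h1a rose by 0.48 ± 0.16, and its libraries, given above, did not overlap either.

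Other Hist3 genes stood lower in co-culture. Hist3h2ba, an H2B gene, stood at 110.4, 55.25 and 75.94 in monoculture and 46.08, 17.19 and 52.49 in co-culture, without overlap but not called (-0.94 ± 0.34). The neighbouring pseudogene Hist3h2bb-ps was at -0.60 ± 0.31. Within this 1 small cluster the H2A gene was thus higher and the 2 H2B loci lower, and all 3 were low in every library. Of the fibroblast markers, near 0 in monoculture, 13 of 13 tested were called higher in co-culture, beside 15.9% of all genes. Their part in these Hist3 values was not tested. The count of 3 rises was 1 without monoculture 3 or without co-culture 1, 2 without co-culture 2, co-culture 3 or TGF-β 1, 5 without monoculture 1 or without TGF-β 2, and 6 without TGF-β 3. DESeq2 and a fit of the 2 groups alone each called 6.

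Set against TGF-β alone, co-culture had lower histone mRNA, and here many members were called. Of 66 members 25 were lower and 1 higher, Hist3h2a, beside 11.9% and 13.4% of all genes. The median was -0.53, beside 0.01 over all genes, and 60 of 66 were below 0. The groups did not overlap in 32 members that were lower (48.5%) and in 1 that was higher (1.52%), beside 19.8% and 21.3% of all genes. This comparison shares its TGF-β libraries with the first and its co-culture libraries with the second. Calls by type were 8 of 11 H3 genes, 7 of 13 H4, 6 of 18 H2B, 2 of 6 H1 and 2 of 18 H2A genes lower.

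The H3 genes with calls were Hist1h3a, Hist1h3c, Hist1h3d, Hist1h3e, Hist1h3f, Hist1h3g, Hist1h3h and Hist1h3i, and they fell by 0.51 to 0.78 on the log2 scale. Hist1h3e stood at 18996, 19422 and 19434 in co-culture and at 27672, 34430 and 23982 with TGF-β, a fall of 0.56 ± 0.13 on the log2 scale. Hist1h3b, with more counts, stood at 22771, 20474 and 24734 in co-culture and 39598, 46877 and 29661 with TGF-β. These groups did not overlap, yet the change of -0.75 ± 0.24 was not called. The H4 genes with calls were Hist1h4a, Hist1h4b, Hist1h4d, Hist1h4f, Hist1h4k, Hist1h4m and Hist1h4n, and they fell by 0.55 to 0.82 on the log2 scale. Hist1h4d, the H4 gene of most counts, stood at 47821, 53884 and 39185 in monoculture, 40601, 39592 and 44055 in co-culture and 59344, 80336 and 47093 with TGF-β. Hist1h4k stood at 7397, 6940 and 8781 in co-culture and 11868, 16063 and 10428 with TGF-β. In both, every co-culture lay below every TGF-β library.

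The deepest falls were in genes of the Hist2 and Hist3 clusters. Hist3h2ba fell by 1.58 ± 0.34 on the log2 scale, from 124, 148.6 and 109.1 with TGF-β to the co-culture values given above. Hist2h2ab, an H2A gene of the chromosome 3 cluster, stood at 2996, 4260 and 3000 in monoculture, 1994, 1770 and 2736 in co-culture and 6038, 6949 and 3441 with TGF-β. Its fall was 1.30 ± 0.28, with no overlap between co-culture and either other group. An antisense gene overlaps it, and whether the counts used strand is not stated. Hist3h2bb-ps fell by 1.06 ± 0.31, and Hist1h2bp by 0.80 ± 0.21. Linker genes moved less: Hist1h1d fell by 0.41 ± 0.13 and Hist1h1b by 0.31 ± 0.11, and the H1 share of all histone counts was 42.4% ± 2.27 in co-culture beside 38.3% ± 2.77 with TGF-β and 38.2% ± 2.02 in monoculture (SD, n = 3).

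Which libraries were included also moved this count. Lower calls numbered 9 without co-culture 1, 9 without co-culture 2, 13 without TGF-β 1, 13 without TGF-β 2 and 40 without TGF-β 3. The single higher call, Hist3h2a, was lost without co-culture 1, co-culture 3, TGF-β 2 or TGF-β 3. The median stayed between -0.36 and -0.72 when any 1 library was left out.

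Genes known to give polyadenylated histone mRNA differed among themselves. These were Hist1h1c, Hist1h2bc, Hist2h2be, Hist3h2a and Hist4h4. Hist2h2be, an H2B gene, was flat: it stood at 647.9, 575.5 and 713.7 in monoculture, 663.5, 538.4 and 730.2 in co-culture and 647.8, 537.6 and 711.3 with TGF-β. Its fold change was -0.01 ± 0.15 in co-culture and -0.03 ± 0.15 with TGF-β, both against monoculture. Its head-to-head neighbour Hist2h2ac stood at 38816, 56929 and 38949, then 32096, 31066 and 46911, then 61450, 65901 and 38035. Hist1h2bc stood at 13639, 11863 and 10075 in monoculture and 17285, 22119 and 12231 with TGF-β (0.51 ± 0.2, not called). Hist3h2a and Hist4h4, both with calls, are described above. Over the 19 tested members whose model runs on for more than 100 bases past the stem-loop, the TGF-β median was 0.47, and over the 19 whose model ends within 100 bases it was 0.55.

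Testis histones were near absent. Hist1h1t, the testis linker histone, stood at 19.48, 11.51 and 8.524 in monoculture, 24.95, 42.2 and 23.92 in co-culture and 14.28, 37.15 and 29.54 with TGF-β. Its fold change in co-culture, 0.80 ± 0.35, was not called although the groups did not overlap. Hist1h2aa and Hist1h2ba, a head-to-head testis pair, did not pass the filter. Hist1h2aa was highest in monoculture 1 at 30.85 and otherwise between 2.325 and 15.3, and Hist1h2ba reached at most 4.545. The remaining untested member, Hist2h2aa2, reached at most 6.237, and its near-identical copy Hist2h2aa1 stood between 63.32 and 161.6.

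Other RNAs without a poly(A) tail had TGF-β fold changes of the same sign as most histone genes. Of 9 such RNAs tested, 9 had a positive fold change against monoculture, with a median of 0.63. Rny1 (0.16 ± 0.77), Rny3 (0.7 ± 0.95) and Yam1 (0.63 ± 0.83) had fold changes smaller than their SE. So did Terc (0.2 ± 0.39) and Rprl2 (0.24 ± 0.35), and in the rest the fold change exceeded the SE. In limma 0 of the 9 were called against monoculture (3 at an unadjusted p under 0.05), by edgeR 0 and by DESeq2 2. For co-culture against TGF-β their median was -0.77, with 2 called lower. Rpph1, the RNA of ribonuclease P, stood at 154815, 169327 and 185765 in monoculture, 134027, 104122 and 205666 in co-culture and 288867, 459717 and 262853 with TGF-β. Rn7sk, the 7SK RNA that restrains transcription elongation, stood at 90705, 75202 and 101921, then 81485, 55382 and 94284, then 140996, 196154 and 122815. In both, every TGF-β library lay above the other 6 libraries, and adjusted p in limma was 0.121 and 0.124 against monoculture. The 2 called lower in co-culture against TGF-β were also Rpph1 and Rn7sk. In that comparison the adjusted p in limma was 0.00971 for Rpph1 and 0.00807 for Rn7sk. Rmrp, the RNA of ribonuclease MRP, had 33147 normalized counts in TGF-β 2 and 3825 to 14905 in the other 8 libraries.

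Set against Rn7sk or Rpph1, the order of the groups changed. These 2 had the smallest p of their list with TGF-β. Their fold changes of 0.76 and 0.95 lay above the histone median of 0.52, so a lower ratio with TGF-β followed from that choice. Over the 9 such RNAs tested, TGF-β fold changes ran from 0.16 (Rny1) to 1.51 (Rmrp). Histone counts per Rn7sk count were 8.45, 13.4 and 7.24 in monoculture, 9.66, 13.8 and 9.69 in co-culture and 8.24, 6.8 and 7.31 with TGF-β. Per Rpph1 count they were 4.95, 5.96 and 3.97, then 5.87, 7.36 and 4.44, then 4.02, 2.9 and 3.41. On both scales the mean was lowest with TGF-β, at 7.45 ± 0.73 and 3.44 ± 0.561 (SD, n = 3). The part of these RNAs' shared behaviour in the histone result was not tested.

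**Figure D4:**
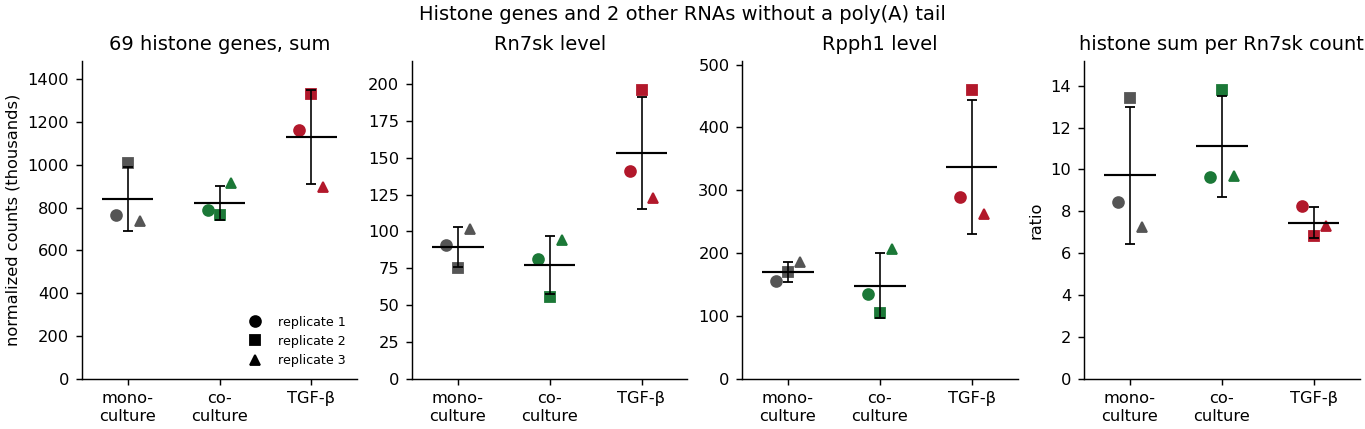
Summed normalized counts of the 69 histone genes, of Rn7sk and of Rpph1 (axes from 0), and the ratio of the histone sum to Rn7sk, in each library. Points are libraries, lines group means and bars 1 SD (n = 3). The first 3 panels have their highest mean with TGF-β, and in the last the TGF-β mean of 7.45 is the lowest.

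Few genes were called with TGF-β, those of DNA replication included. Of 30 S phase genes tested, 1 rose with TGF-β and 0 fell, beside 1.13% of all genes higher and 1.39% lower. Their median was 0.05, and the gene that rose was Tk1, thymidine kinase (0.41 ± 0.08, adjusted p in limma 0.0114). In co-culture 8 fell and 0 rose against monoculture, with a median of -0.11, beside 15.0% of all genes called lower. Against TGF-β 11 were lower, with a median of -0.18, beside 11.9% of all genes. Pcna, the sliding clamp of DNA polymerase, stood at 47352, 44122 and 43187 in monoculture, 20607, 20045 and 23073 in co-culture and 38791, 39202 and 32967 with TGF-β. It fell in co-culture by 1.08 ± 0.09 on the log2 scale (limma adjusted p 6.42e-07), and its libraries there lay below all others. Cdt1, which loads the replicative helicase, and the transcription factor E2f1 fell by 0.58 ± 0.09 and 0.54 ± 0.09. Counts of histone mRNA per count of the S phase list were 2.38 ± 0.376 in monoculture, 2.76 ± 0.209 in co-culture and 3.22 ± 0.478 with TGF-β (SD, n = 3).

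Of 20 mitosis genes 10 rose and 0 fell in co-culture, with a median of 0.24 and 17 above 0, beside 15.9% of all genes called higher and 15.0% lower. At an unadjusted p under 0.05 limma had 0 lower, and edgeR and DESeq2 called 0. Mki67, the proliferation marker Ki-67, rose by 0.52 ± 0.15 (adjusted p 0.0149 in limma), from 79539, 67721 and 83506 to 111373, 120718 and 99602. Cenpe and Cenpf, proteins of the kinetochore, rose by 0.49 ± 0.11 and 0.53 ± 0.14, and the kinase Aurka by 0.32 ± 0.08. With TGF-β 1 of 20 rose, Nusap1 (0.38 ± 0.09), beside 1.13% of all genes, and Mki67 was at 0.05 ± 0.15. Of 12 cell cycle inhibitors 2 rose and 4 fell in co-culture, beside the same 15.9% and 15.0% of all genes. Cdkn1c, encoding p57, fell by 3.91 ± 0.28, from 626.7, 735.6 and 709.8 to 18.02, 38.29 and 64.45. Cdkn2a fell by 1.90 ± 0.19 on the log2 scale, and Cdkn2b fell by 1.82 ± 0.21. With TGF-β 0 of the 12 were called in limma, beside 1 higher and 2 lower at an unadjusted p under 0.05, 0 by edgeR and 2 by DESeq2.

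Some factors that make and process histone mRNA changed in co-culture and 1 with TGF-β. Npat, which activates histone transcription, rose in co-culture by 0.25 ± 0.08 (limma adjusted p 0.0389) and was at 0.07 ± 0.08 with TGF-β. With it rose Pou2f1, encoding OCT1 (0.53 ± 0.13), and the NPAT partner Casp8ap2 (0.31 ± 0.08). Thus 3 of the 5 genes listed for histone transcription were called higher, beside 15.9% of all genes. Slbp stood at 7914, 9035 and 7657 in monoculture, 6927, 6836 and 7401 in co-culture and 8358, 9278 and 7233 with TGF-β. It was called in neither comparison, at -0.21 ± 0.10 and 0.01 ± 0.10. Of 14 genes of 3′ processing and turnover, 2 rose and 2 fell in co-culture, close to the shares over all genes (15.9% higher and 15.0% lower). With TGF-β 1 of the 14 fell, beside 1.39% of all genes. The genes that rose were Zfp473, a zinc finger protein of histone pre-mRNA processing (0.80 ± 0.27, limma adjusted p 0.0349), and the terminal uridylyltransferase Zcchc6 (0.42 ± 0.09). The gene that fell with TGF-β was the cleavage factor Cstf2, which fell by 0.40 ± 0.08 with TGF-β and by 0.63 ± 0.08 in co-culture.

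Replacement histones are made largely outside S phase, mostly from polyadenylated mRNA. In co-culture 7 of 11 rose and 1 fell against monoculture, with a median of 0.31, beside 15.9% of all genes called higher and 15.0% lower. The linker variant H1f0 rose by 0.62 ± 0.08 (limma adjusted p 4.51e-05), from 4361, 4981 and 4948 to 6784, 7520 and 7590. The centromere variant Cenpa rose by 0.57 ± 0.11, and H3f3b, which encodes H3.3, by 0.40 ± 0.08. H1fx, encoding H1.10, fell by 1.18 ± 0.17 on the log2 scale. With TGF-β 0 of 11 were called in limma (7 higher at an unadjusted p under 0.05, 0 by edgeR and 2 by DESeq2), and 11 of 11 were above 0, with a median of 0.29. H2afx, which carries the stem-loop pattern, was at 0.09 ± 0.14 in co-culture and 0.35 ± 0.14 with TGF-β. Among 13 histone chaperones, Atrx rose in co-culture and the CAF-1 subunit Chaf1b and the H3.3 chaperone Daxx fell, beside the same shares of all genes. With TGF-β 0 were called by limma, edgeR or DESeq2, beside 2 higher and 2 lower at an unadjusted p under 0.05 in limma.

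**Figure D5:**
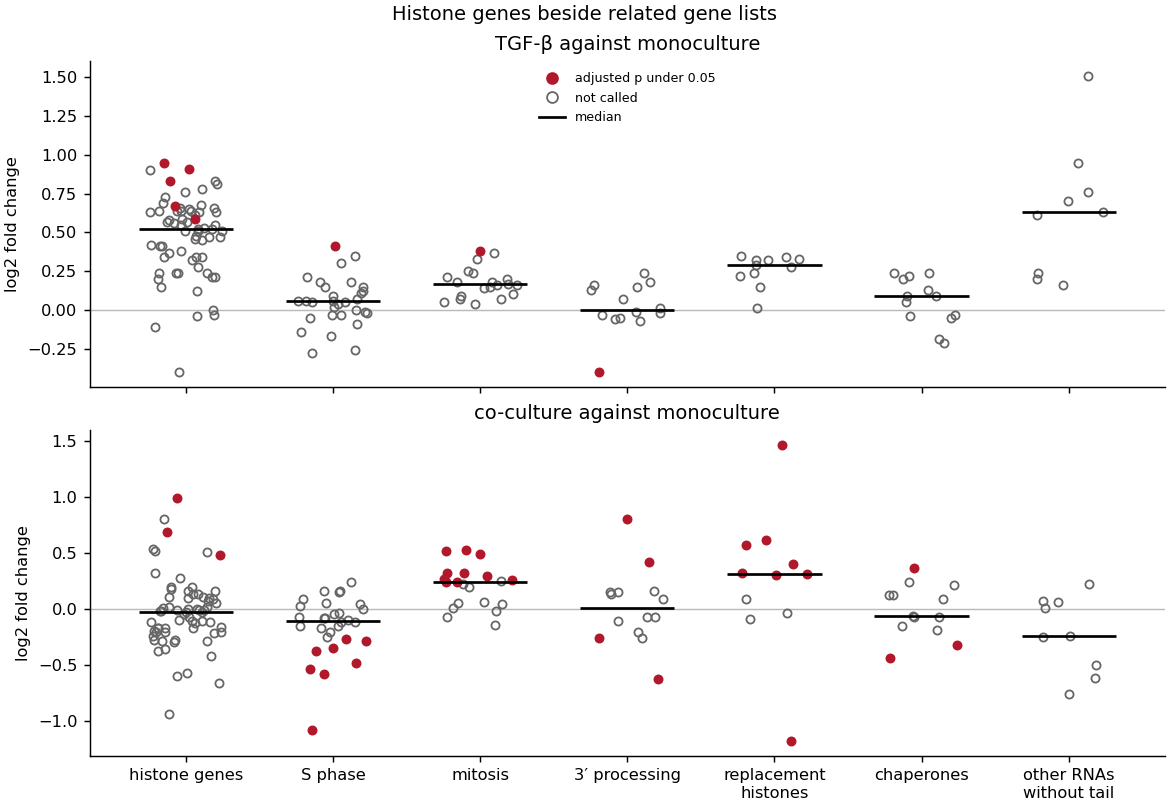
Log2 fold change against monoculture, on the log2(value + 10) scale, of the 66 tested histone genes and of 6 related gene lists, with TGF-β (top) and in co-culture (bottom). Filled points passed adjusted p under 0.05 in limma and lines are medians. With TGF-β the histone median of 0.52 and that of the other RNAs without a tail, 0.63, lie above the S phase median of 0.05.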

How the data were processed

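Macrophage RNA was sequenced in 9 libraries, for which the labels' protocols give 10 ng of input and the SMART-Seq Stranded chemistry. The table deposited by the authors has a signal value for every gene in each library. Per the submitters' processing notes, STAR 2.7.3, bcl2fastq 2.20, R 3.6.1 and DESeq2 1.24.0 were used with mm10, in roles the notes leave out. Which program counted reads, with which annotation, strand setting and filter, is not given in the sources used here. The deposited signal values were whole multiples of 1 value per library (100% within 0.05), so they are read counts divided by a size factor. One read was worth 0.346 to 2.27 normalized counts. Columns were matched to samples by name.

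An edgeR test had been planned for plain counts. Since the values are scaled, limma 3.58.1 (R 4.3.3, trend and robust) was fitted on log2(value + 10) to genes with at least 10 in at least 3 libraries, 16328 of 24607. All 9 libraries entered 1 fit with the group as factor, and Benjamini-Hochberg adjustment ran over all genes tested. A gene was called under an adjusted p of 0.05, and "rose" or "fell" is written of called genes. Low genes have smaller fold changes because of the added 10. Nothing states that libraries of a group are separate cultures beyond the 3 mice, so p-values measure the spread between these libraries. Alternatives were edgeR 4.0.16 and DESeq2 1.42.0 on recovered reads, other filters, scaling, pseudocount and samples, and each library left out. Only the limma fit was tried on simulated data, for the comparisons with monoculture and not for co-culture against TGF-β.

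The members and gene lists were chosen with earlier results of these data known. Named members were the 2 of highest mean per type, the 3 largest called rises and falls per comparison, the somatic H1 genes, the testis and polyadenylated lists and the Hist3 and Hist4 genes. Of each other list the 3 genes of smallest p per comparison with monoculture were eligible, beside Slbp, Npat, Mki67 and Pcna. Hist1h3i, the head-to-head pairs, the remaining called H3 and H4 genes, H3f3b, H2afx, Hist1h2bq, Hist2h2aa1 and Hist2h2aa2 were named after their values were seen. Of the members, 67 matched GENCODE M21 by identifier.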

Additional observations from a re-analysis of the deposited data

How the results depend on the processing

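Across 17 alternatives the fold changes of the tested ones among the 26 named members gave 1224 values, of which 1221 stayed within 1 SD. Hist1h2aa and Hist1h2ba, which did not pass the filter, are not among them. In 14 values, from 7 members and each with 1 library left out, the sign was opposite; these were not called under either setting, and none exceeded 0.18 in size. The 3 that moved were those of Hist1h1t in co-culture. Counts of called members moved more. For co-culture against monoculture, higher calls (3) were 6 with DESeq2 and 6 in a fit of the 2 groups, and ranged from 1 to 6 with 1 library left out. Lower calls (0) were 1 with DESeq2, TMM scaling, the filter in every library of a group, the fit of 2 groups and the replicate block, and 0 to 1 with 1 library left out. For TGF-β against monoculture, higher calls (5) were 26 with DESeq2, 2 in the fit of 2 groups, 6 with edgeR, and 0 to 30 with 1 library left out. For co-culture against TGF-β, lower calls (25) were 27 with edgeR and ranged from 9 to 40, and higher calls (1) from 0 to 1, with 1 library left out. Higher and lower calls together (26) were 38 with DESeq2 and 33 in the fit of the 2 groups. Without mitochondrial ribosomal RNA, Gm23935 and Yam1 in the denominator, the family's share of reads was 0.936% in monoculture, 0.966% in co-culture and 1.29% with TGF-β.

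Whether replicate numbers pair the samples could not be settled from the values. Of 9 same-numbered pairs 3 had deviations correlated over 0.1 (range -0.147 to 0.372), and differently numbered pairs ran from -0.351 to 0.249. With the replicate block 7 members were called higher with TGF-β against monoculture, of which 3 were shared with the 5 above; Hist4h4 and Hist1h2bl were not called, and 4 others were. In co-culture against TGF-β 24 were lower, and of all 26 calls there 23 were shared.

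With 3 libraries per group and depths from 46.83 to 308.8 M reads, members of low level, such as Hist1h1t, Hist1h2bq and the Hist3 genes, rest on few reads. How reads of near-identical copies were assigned is not stated.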
